A study of Mus musculus with 13 samples.

Results

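The collagen chain genes were compared across Panc02 tumors of 4 diet and supplement groups. Members were all genes whose symbol is Col, a number, the letter a and a second number, and 44 of the 22180 genes measured qualified. They were sorted into 11 fibrillar, 6 basement membrane, 9 FACIT (fibril-associated collagens with interrupted triple helices) and 18 other chains. Panc02 is a mouse pancreatic ductal adenocarcinoma cell line, and the tumors grew under the skin of male C57BL/6 mice. The groups were DIO + HMB (n = 4), DIO (n = 3), control + HMB (n = 3) and control (n = 3), with 1 tumor of a different mouse on each of the 13 arrays. DIO mice were made obese on a high-fat diet and did not receive HMB, and DIO + HMB mice ate that diet with HMB (β-hydroxy-β-methylbutyrate, a product of leucine breakdown) added. Control + HMB mice were not obese and received HMB, and control mice were not obese and had neither. All groups carried the same tumor line, and no group was genetically altered. The labels give neither the age of the mice nor whether a tumor came from a mouse given gemcitabine or vehicle, both of which the study used. The whole tumor was homogenized, so a lower value can stand for fewer cells of a type or for less RNA in each cell, and these cannot be told apart here.

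Collagens are proteins of 3 chains wound into a triple helix. The fibrillar collagens I, II, III, V, XI, XXIV and XXVII form or join banded fibrils. Collagen IV forms the network of basement membranes, FACIT collagens such as XII and XIV sit on fibril surfaces, and collagen VI makes beaded filaments around cells. In pancreatic cancer, collagen I made by fibroblasts and stellate cells is the main protein of the dense stroma. Each chain is hydroxylated, folded with chaperones in the endoplasmic reticulum, secreted and cross-linked outside the cell, and the genes for these steps are described after the chains.

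Promoter sequences were available for 35 of the 44 genes, in 38 windows of the RefSeq table for build GRCm38.p6. The 250 bases before the start of 3 fibrillar genes are shown because these genes went up and down together across the tumors. The windows are chr6:4505368-4505617 for Col1a2, chr1:45311288-45311537 for Col3a1 and chr2:27886175-27886424 for Col5a1, all on the plus strand, and each is written 5′ to 3′. Capitals mark every match on either strand to CCAAT, to the GC box GGGCGG or to the TATA-like word TATAA.
Col1a2: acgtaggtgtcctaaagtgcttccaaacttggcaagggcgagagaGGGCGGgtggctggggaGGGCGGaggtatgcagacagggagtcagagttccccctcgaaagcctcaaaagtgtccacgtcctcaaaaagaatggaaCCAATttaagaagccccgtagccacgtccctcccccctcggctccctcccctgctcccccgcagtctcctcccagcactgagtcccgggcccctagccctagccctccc
Col3a1: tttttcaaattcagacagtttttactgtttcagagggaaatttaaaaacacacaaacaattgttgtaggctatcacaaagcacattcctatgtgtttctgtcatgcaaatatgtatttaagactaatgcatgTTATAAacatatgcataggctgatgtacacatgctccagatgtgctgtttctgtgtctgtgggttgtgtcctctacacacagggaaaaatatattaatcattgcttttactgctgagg
Col5a1: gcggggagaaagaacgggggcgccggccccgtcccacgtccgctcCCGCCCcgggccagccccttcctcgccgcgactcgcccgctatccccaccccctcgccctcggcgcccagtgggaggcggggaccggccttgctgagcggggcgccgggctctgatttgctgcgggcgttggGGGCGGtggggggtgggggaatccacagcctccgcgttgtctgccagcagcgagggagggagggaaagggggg
The Col1a2 window held 1 CCAAT and 2 GGGCGG matches, the Col5a1 window held 2 GGGCGG matches, and the Col3a1 window held 2 TATAA matches that overlap on opposite strands. None of the 3 words was present in all 3 windows. Over the collagen windows, 34.2% held CCAAT, 57.9% GGGCGG and 18.4% TATAA, against 33.8%, 32.7% and 22.8% of all 32851 windows in the table.

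The arrays were alike in overall signal, with medians of 3.65 to 3.75 on the log2 scale and pairwise correlations of 0.971 to 0.991. The deposited table has no detection call, so low signal was read only against the median of all gene means, 4.45. The means of 24 of the 44 collagen genes lay below it (4 fibrillar, 3 basement membrane, 7 FACIT and 10 other). Of 12 epithelial duct markers, 5 averaged above that median (Krt18 at 9.54, Sox9 at 9.38, Krt8 at 9.18, Cdh1 at 7.67 and Muc1 at 5.88) and 7 below it (Epcam, Krt19, Krt7, Cldn7, Esrp1, Cldn4 and Grhl2, at 2.33 to 4.43). Of 15 fibroblast markers, Pdgfrb, Pdgfra and Dpt had the highest means (10.3, 10.1 and 8.56). Clec3b, Twist2 and Tcf21 averaged 4.39, 3.11 and 2.53, below that median. The skeletal muscle marker score was 3.93 in DIO + HMB replicate 3, 2.32 in DIO replicate 1 and 2.07 in control replicate 3, and the B cell score was 3.89 in DIO + HMB replicate 1. A score here is the mean over a list of log2 values centered on each gene's mean over the 13 arrays.

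No collagen chain gene passed an adjusted p of 0.05 in any comparison. Instead 8 chain genes, Col1a1, Col1a2, Col3a1, Col5a1, Col5a2, Col6a1, Col6a2 and Col6a3, varied together between tumors of the same group. DIO replicate 3 and control replicate 2 were the 2 lowest arrays for each of these 8, and DIO replicates 1 and 2 and control replicate 1 were among the highest. DIO replicate 3 held the lowest value of 13 of the 44 genes and DIO replicate 2 the highest value of 15.

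**Figure D1:**
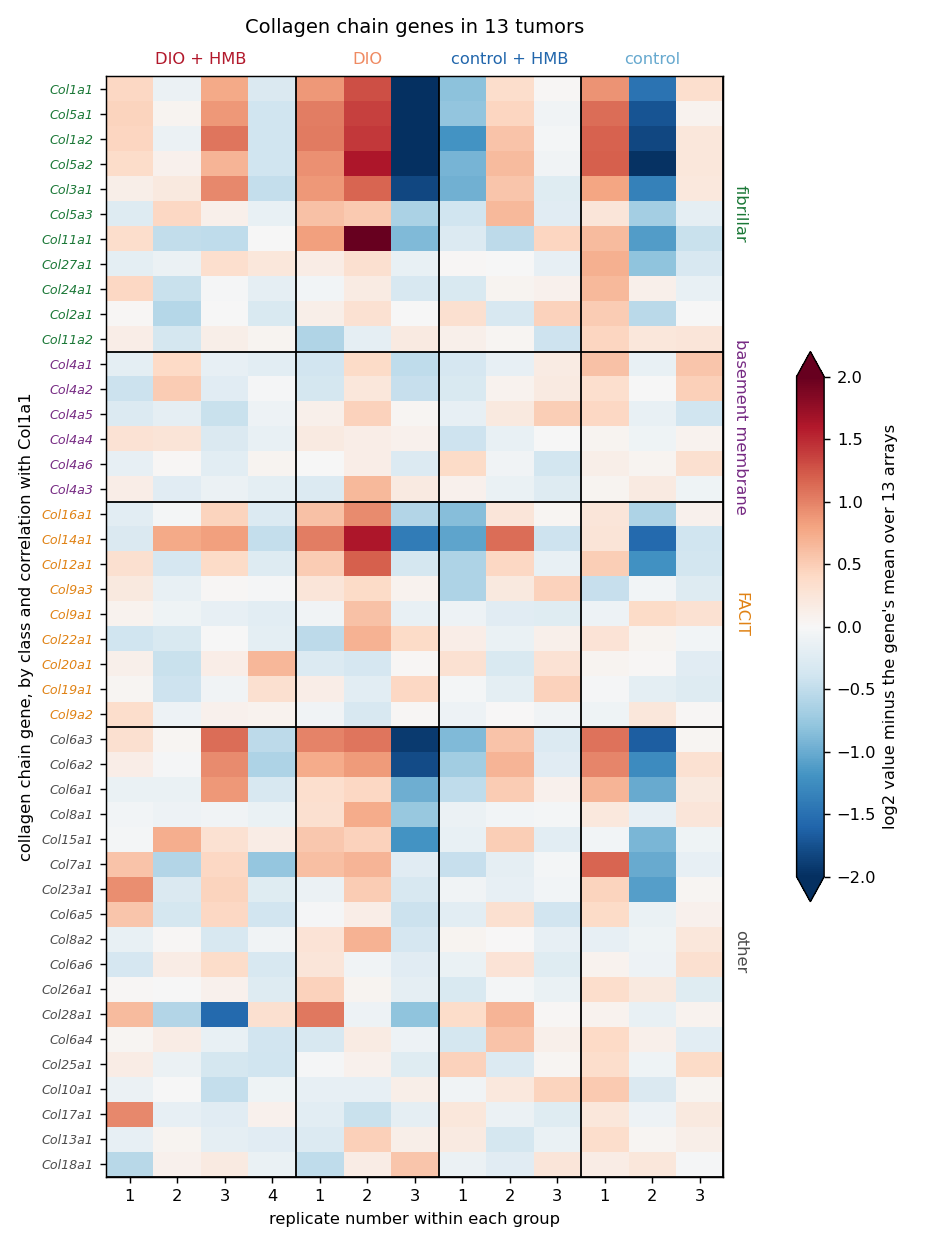
Log2 values of the 44 collagen chain genes in 13 tumors, each minus the gene's mean over all arrays (color). Rows run by class and by correlation with Col1a1, and columns by group and replicate number. The upper fibrillar rows and Col6a1, Col6a2 and Col6a3 are low together in DIO replicate 3 and control replicate 2. Col4a1 and Col4a2 are also lowest in DIO replicate 3, by less (7.37 and 7.06, against means of 7.87 and 7.53). Col4a3, Col4a4 and Col4a5 lie above their means in that tumor.

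Among the fibrillar chains, Col1a1, the α1 chain of collagen I, had log2 values of 11.40, 10.87, 11.73 and 10.69 in DIO + HMB tumors. Its values were 11.86, 12.27 and 8.75 in DIO tumors, 10.16, 11.33 and 11.01 in control + HMB tumors, and 11.88, 9.50 and 11.32 in control tumors. The 4 groups overlapped, and both the highest and the lowest tumor were DIO, which made the range inside this group 11.4-fold. Group means were 11.17 ± 0.48 (SD, n = 4) in DIO + HMB, 10.96 ± 1.92 in DIO, 10.83 ± 0.60 in control + HMB and 10.90 ± 1.25 in control (n = 3 each). The difference was 0.06 (95% interval -1.68 to 1.80) for DIO against control and 0.21 (-1.42 to 1.84) for DIO + HMB against DIO, so a change of 3-fold either way lay within the first interval. Without DIO replicate 3 the Col1a1 difference of DIO from control was 1.16, and without control replicate 2 it was -0.64.

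Col1a2 encodes the other chain of collagen I. It had values of 10.49, 9.94, 11.12 and 9.67 in DIO + HMB tumors, 11.10, 11.47 and 7.70 in DIO tumors, 8.87, 10.62 and 10.01 in control + HMB tumors, and 11.23, 8.24 and 10.28 in control tumors. The tumors that were low for Col1a1 were low for Col1a2, and the range within DIO was 13.6-fold. Col3a1, whose product forms fibrils with collagen I, had values of 10.37, 10.45, 11.21 and 9.77 in DIO + HMB tumors, 11.11, 11.41 and 8.44 in DIO tumors, 9.30, 10.81 and 10.01 in control + HMB tumors, and 11.03, 8.90 and 10.46 in control tumors. DIO replicate 3 and control replicate 2 were again the 2 lowest.

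Collagen V initiates and limits the width of collagen I fibrils. Its α1 chain gene Col5a1 had values of 7.43, 7.04, 7.84 and 6.59 in DIO + HMB tumors, 8.0, 8.35 and 4.60 in DIO tumors, 6.19, 7.41 and 6.91 in control + HMB tumors, and 8.10, 5.25 and 7.06 in control tumors. Its α2 chain gene Col5a2 had values of 7.66, 7.37, 7.97 and 6.90 in DIO + HMB tumors, 8.20, 8.90 and 4.97 in DIO tumors, 6.36, 7.93 and 7.22 in control + HMB tumors, and 8.48, 5.31 and 7.52 in control tumors. The 15.3-fold range of Col5a2 within DIO was the widest within-group range of any collagen gene. Col5a2 averaged 7.36 ± 2.10 in DIO and 7.10 ± 1.62 in control (SD, n = 3 each), a difference of 0.25 ± 0.93 (SE). The remaining collagen V chain gene, Col5a3, stayed between 4.52 and 5.85 over all arrays.

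**Figure D2:**
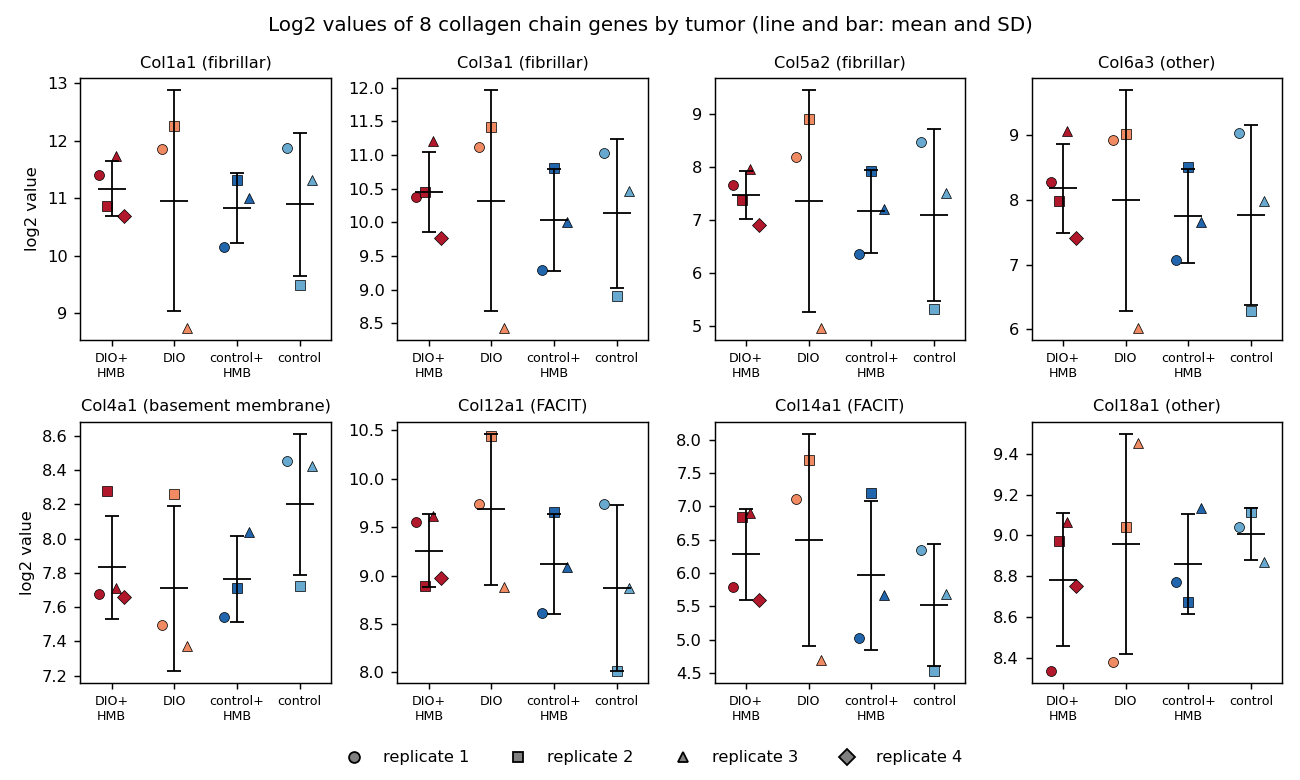
Log2 values of 8 collagen chain genes in each tumor (points, shape by replicate number) with the group mean and SD (line and bar), one panel per gene with its own axis range. DIO replicate 3 lies at 8.75 for Col1a1 and 4.97 for Col5a2, far under the other 2 DIO tumors.

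The remaining fibrillar chains were less variable, except Col11a1. This chain of collagen XI, a cartilage collagen also made by activated fibroblasts, is given for its spread and had values of 4.04, 3.20, 3.18 and 3.69 in DIO + HMB tumors, 4.52, 5.69 and 2.82 in DIO tumors, 3.42, 3.17 and 4.12 in control + HMB tumors, and 4.33, 2.58 and 3.24 in control tumors. Its difference of DIO from control was 0.96 ± 0.61 (SE), with an adjusted p of 0.727. Col11a2, another collagen XI chain, had values of 2.53, 2.95 and 3.30 in DIO tumors, all below 3.56, 3.36 and 3.38 in control tumors. The DIO + HMB values of 3.26, 2.78, 3.25 and 3.18 and the control + HMB values of 3.24, 3.17 and 2.72 were also below every control tumor. The difference of DIO from control was -0.50 ± 0.21 (SE), with an unadjusted p of 0.0313 and an adjusted p of 0.627, at a signal below the median of all genes. Col2a1, Col24a1 and Col27a1 had within-group SDs of 0.32 to 0.41.

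The spread within groups set these chains apart from most genes. The pooled SD within groups was 1.34 for Col1a2, 1.33 for Col5a2, 1.26 for Col5a1, 1.16 for Col6a3, 1.15 for Col1a1, 1.09 for Col14a1, 1.05 for Col3a1 and 1.02 for Col6a2. These 8 were the collagen genes with an SD of 1 or more, 18.2% of the 44, while 1.07% of all genes reached it. The median SD was 0.359 over the collagen genes and 0.236 over all genes. The share of a gene's variation that lay between the 4 groups had a median of 16.0% over the collagen genes and of 27.5% over all genes. For Col1a1 that share was 1.92%.

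The variable chains moved together. Col1a1 and Col1a2 correlated over the 13 arrays at r = 0.993 (rho = 0.989, permutation p = 1e-05 for both, the smallest that 100000 permutations can give), and at r = 0.989 without DIO replicate 3 and control replicate 2, the 2 arrays farthest from the Col1a1 median. Col5a1 and Col5a2 correlated at r = 0.993 (rho = 0.995, permutation p = 1e-05, r = 0.982 without those 2 arrays). For Col1a1 and Col3a1 the values were r = 0.975, rho = 0.934 and r = 0.950 without them (permutation p = 1e-05). Deviations from the group means gave 0.993, 0.993 and 0.976 for the same 3 pairs, so the relations were as close inside groups. Adjusted over the 12 pairs compared, these permutation p-values were 2.4e-05. The pairs were chosen with earlier results of these data known, and the permutations shuffled all 13 arrays without regard to group.

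Over all members, 12 of the 43 other collagen genes (27.9%) correlated with Col1a1 at r of 0.8 or more, against 139 of all 22179 other genes (0.627%). The 7 at 0.9 or more were Col5a1, Col1a2, Col5a2, Col3a1, Col6a3, Col6a2 and Col6a1. The next were Col16a1 (0.86), Col8a1 and Col14a1 (0.84 each), Col12a1 (0.81) and Col15a1 (0.80). Without the 2 farthest arrays, Col16a1 and Col12a1 stood at 0.92 and 0.91, Col8a1 and Col14a1 at 0.74 and 0.75, and Col15a1 at 0.33, so the relation of Col15a1 rested on those 2 tumors. Over these 12 genes rho was 0.577 to 0.995, and adjusted over the 123 genes set against Col1a1 the permutation p was 0.000154 to 0.00911 for r and 0.000176 to 0.133 for rho, the highest in each case for Col15a1. None of the 6 basement membrane chains reached 0.8. Col18a1 had r = -0.47 (rho = -0.30, permutation p = 0.106 and 0.314) and 0.06 without the 2 arrays.

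**Figure D3:**
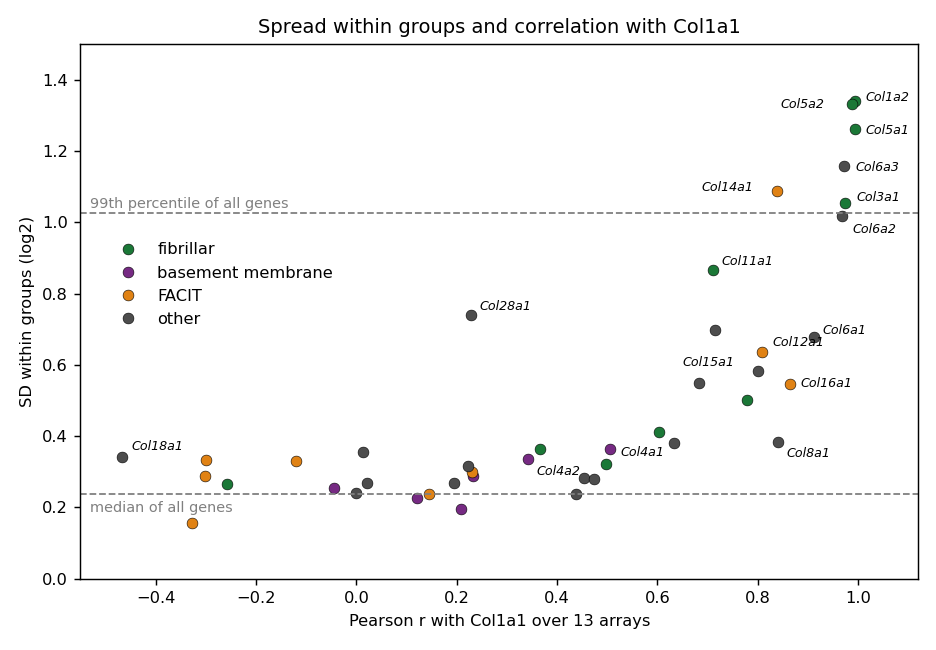
Pooled SD within groups (log2, y axis) against Pearson r with Col1a1 over 13 arrays (x axis) for the other 43 collagen chain genes, colored by class. Dashed lines give the median (0.236) and the 99th percentile (1.02) of the SD over all genes. Col1a2, Col3a1, Col5a1, Col5a2, Col6a2 and Col6a3 lie at the upper right, and the collagen IV chains and Col6a4, Col6a5 and Col6a6 lie nearer the median line.

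Collagen VI followed the fibrillar chains. Its α3 chain gene Col6a3 had values of 8.27, 7.98, 9.06 and 7.41 in DIO + HMB tumors, 8.93, 9.01 and 6.03 in DIO tumors, 7.06, 8.51 and 7.66 in control + HMB tumors, and 9.03, 6.29 and 7.98 in control tumors. Col6a2 had values of 8.41, 8.25, 9.22 and 7.65 in DIO + HMB tumors, 9.01, 9.12 and 6.48 in DIO tumors, 7.58, 8.95 and 8.05 in control + HMB tumors, and 9.24, 7.01 and 8.58 in control tumors. Col6a1 spread less, with 9.69, 9.70, 10.69 and 9.50 in DIO + HMB tumors, 10.17, 10.24 and 8.85 in DIO tumors, 9.32, 10.33 and 9.91 in control + HMB tumors, and 10.50, 8.81 and 10.01 in control tumors. All groups overlapped for each chain. The 3 chains assemble into 1 molecule, and Col6a1 correlated with Col6a2 at r = 0.963 (rho = 0.951, 0.934 without DIO replicate 3 and control replicate 2) and with Col6a3 at r = 0.951 (rho = 0.940, 0.890 without them), with permutation p = 1e-05 in each case and 2.4e-05 when adjusted. Col6a1 and Col6a2 are neighbors on chromosome 10, as are Col3a1 and Col5a2 on chromosome 1. Col6a4, Col6a5 and Col6a6, alternatives to Col6a3 that neighbor each other on chromosome 9, had within-group SDs of 0.28 to 0.38 and means of 2.67 to 3.15, below the median of all genes.

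The basement membrane chains varied less than the 8 chains of collagens I, III, V and VI. Their within-group SDs ran from 0.196 (Col4a4) to 0.365 (Col4a1), around the median of 0.236 over all genes. Col4a1, a chain of the main collagen IV network under endothelium and epithelium, had values of 7.68, 8.28, 7.71 and 7.66 in DIO + HMB tumors, 7.50, 8.26 and 7.37 in DIO tumors, 7.55, 7.71 and 8.04 in control + HMB tumors, and 8.46, 7.72 and 8.42 in control tumors. Its partner Col4a2 had values of 7.10, 8.03, 7.31 and 7.50 in DIO + HMB tumors, 7.17, 7.76 and 7.06 in DIO tumors, 7.22, 7.60 and 7.71 in control + HMB tumors, and 7.87, 7.52 and 8.0 in control tumors. DIO replicate 3 was the lowest array for both Col4a1 and Col4a2. Means of both were lower in each of the other groups than in control, and the groups overlapped. Against control, Col4a1 differed by -0.49 ± 0.27 in DIO, -0.44 ± 0.27 in control + HMB and -0.37 ± 0.25 in DIO + HMB (SE), and Col4a2 by -0.46 ± 0.25, -0.28 ± 0.25 and -0.31 ± 0.24. Adjusted p-values were 0.508 to 0.690, and the 3 comparisons share the control tumors. Without control replicate 2 the Col4a1 differences were -0.73, -0.67 and -0.61, with unadjusted p of 0.0210, 0.0301 and 0.0378 and adjusted p of 0.577, 0.438 and 0.357. Without DIO replicate 2 the difference of DIO from control was -0.77, with an unadjusted p of 0.0120 and an adjusted p of 0.431. Other removals made the Col4a1 differences smaller. The difference of DIO from control was -0.32 without DIO replicate 3, and that of control + HMB was -0.31 without control replicate 1.

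Col4a1 and Col4a2, which neighbor each other, correlated at r = 0.914 (rho = 0.912, permutation p = 4e-05 and 7e-05, r = 0.894 without control replicates 1 and 3). Col4a1 and Col1a1 correlated at r = 0.505 (rho = 0.379, permutation p = 0.0774 and 0.205, r = 0.312 without DIO replicate 3 and control replicate 2). Col4a1 and the endothelial marker Pecam1 had r = 0.089 (rho = 0.027, permutation p = 0.770 and 0.935, r = 0.301 without control replicates 1 and 3). Adjusted over the 12 pairs, the permutation p for r was 8e-05 for Col4a1 and Col4a2, 0.103 for Col4a1 and Col1a1, and 0.770 for Col4a1 and Pecam1. Of the other collagen IV chains, which form the networks of kidney, lung and smooth muscle basement membranes, Col4a5 had values of 4.93, 5.03, 4.77 and 5.11 in DIO + HMB tumors, all below 5.31, 5.68 and 5.25 in DIO tumors. The control + HMB values were 5.04, 5.41 and 5.71, and the control values 5.63, 5.06 and 4.80. The interaction, the HMB difference in obese mice minus that in control mice, was -0.67 ± 0.30 (SE), with an unadjusted p of 0.0464 and an adjusted p of 0.933. Col4a3, Col4a4 and Col4a6 had means of 2.19 to 2.90, below the median of all genes.

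Among the FACIT chains, Col12a1 and Col14a1, whose products bind the surface of collagen I fibrils, were the most variable. Col12a1 had values of 9.55, 8.89, 9.62 and 8.97 in DIO + HMB tumors, 9.74, 10.44 and 8.88 in DIO tumors, 8.62, 9.65 and 9.09 in control + HMB tumors, and 9.73, 8.02 and 8.87 in control tumors. It averaged 9.69 ± 0.78 in DIO and 8.87 ± 0.86 in control (SD, n = 3 each), a difference of 0.81 ± 0.45 (SE) with an adjusted p of 0.686. Col14a1 had values of 5.79, 6.84, 6.90 and 5.60 in DIO + HMB tumors, 7.10, 7.70 and 4.69 in DIO tumors, 5.03, 7.21 and 5.66 in control + HMB tumors, and 6.34, 4.53 and 5.69 in control tumors. For Col14a1 the difference of DIO from control was 0.98 ± 0.76 (SE), with an adjusted p of 0.774. Both means were higher in DIO than in control, neither difference passed the test, and the DIO and control tumors overlapped for both genes. Col1a1 and Col12a1 correlated at r = 0.807 (rho = 0.890, permutation p = 0.00058 and 0.00014, r = 0.908 without DIO replicate 3 and control replicate 2), with adjusted p of 0.000994 and 0.00024.

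The other 7 FACIT chains were Col16a1, which ranged from 3.45 to 5.23, and Col9a1, Col9a2, Col9a3, Col19a1, Col20a1 and Col22a1, with within-group SDs of 0.16 to 0.33. Col9a1, a chain of the cartilage collagen IX, had values of 3.14, 2.98, 2.91 and 2.85 in DIO + HMB tumors and 3.00, 3.65 and 2.92 in DIO tumors. It had 2.96, 2.84 and 2.83 in control + HMB tumors, all below 2.97, 3.45 and 3.37 in control tumors. Averaged over both diets, the HMB difference was -0.30 ± 0.13 (SE), with an unadjusted p of 0.0376 and an adjusted p of 0.332. Every Col9a1 value lay below the median of all gene means.

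In the other class, Col8a1, a short-chain collagen of vessels and wound matrix, was nearly constant within both HMB groups. Its values were 8.60, 8.56, 8.58 and 8.53 in DIO + HMB tumors, 8.98, 9.41 and 7.90 in DIO tumors, 8.54, 8.60 and 8.63 in control + HMB tumors, and 8.86, 8.49 and 8.90 in control tumors. The SDs were 0.029 in DIO + HMB, 0.778 in DIO, 0.043 in control + HMB and 0.224 in control, and both HMB groups lay within the range of their unsupplemented counterparts. Whether the spreads differed was not tested.

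Col15a1 and Col18a1 encode multiplexins, collagens of the basement membrane zone whose carboxyl ends are cut to restin and endostatin. Col15a1 had values of 5.53, 6.30, 5.88 and 5.72 in DIO + HMB tumors, 6.11, 6.03 and 4.37 in DIO tumors, 5.42, 6.07 and 5.36 in control + HMB tumors, and 5.52, 4.66 and 5.48 in control tumors. Every DIO + HMB tumor was above every control tumor, the closest at 5.53 and 5.52. The difference was 0.64 ± 0.39 (SE) with an adjusted p of 0.456. For this and the other separations of groups, the share over all genes was not counted. Col18a1 had values of 8.34, 8.97, 9.07 and 8.75 in DIO + HMB tumors, 8.38, 9.04 and 9.45 in DIO tumors, 8.77, 8.67 and 9.14 in control + HMB tumors, and 9.04, 9.12 and 8.87 in control tumors. DIO replicate 3, which was lowest for Col1a1, Col1a2, Col3a1, Col5a1, Col5a2, Col6a2 and Col6a3, was highest for Col18a1. The remaining 9 genes of this class had within-group SDs of 0.236 to 0.739. They were Col28a1 (0.739), Col7a1 of the skin's anchoring fibrils (0.698), the transmembrane collagen genes Col23a1 (0.548), Col17a1 (0.354), Col25a1 (0.268) and Col13a1 (0.241), Col8a2, the partner of Col8a1 (0.280), Col10a1 of hypertrophic cartilage (0.268), and Col26a1 (0.236). Of these 9, 7 had means below the median of all genes, the exceptions being Col28a1 and Col7a1.

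To ask whether obesity changed the collagen chains without HMB, DIO was compared with control. No member passed the adjusted threshold by limma, as for all genes (0%). At an unadjusted p of 0.05, 0 members were higher and 1 was lower (Col11a2), while 4.31% of all genes were higher and 3.44% lower. The pairwise t statistic of the methods gave 0 adjusted calls. At an unadjusted p of 0.05 it gave 1 member higher (Col9a3) and 1 lower (Col17a1), against 1194 of all 22180 genes in either direction. Median log2 differences were 0.19 for the fibrillar, -0.04 for the basement membrane, 0.27 for the FACIT and -0.04 for the other chains, and 0.02 for all genes. Without DIO replicate 3, 9 members were higher at an unadjusted p of 0.05 (Col11a1, Col5a3, Col12a1, Col14a1, Col16a1, Col9a3, Col15a1, Col8a1 and Col8a2) and 1 was lower (Col11a2), against 4.71% and 3.16% of all genes, and the lowest adjusted p was 0.470. That fit left 2 DIO tumors. Without control replicate 1, 5 members were higher and 0 lower, against 3.63% and 2.84%, with a lowest adjusted p of 0.685. Other removals gave fewer higher members. Removing DIO replicate 1 gave 1 higher and 0 lower, against 3.55% and 2.55% of all genes. Removing DIO replicate 2 gave 0 higher and 2 lower (Col4a1 and Col4a2), against 6.17% and 3.55%. Removing control replicate 2 gave 1 higher and 2 lower, against 3.72% and 4.29%.

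Control + HMB was set against control to ask whether HMB changed the chains in mice that were not obese. By limma 0 members passed the adjusted threshold (0% of all genes), and 0 were higher or lower at an unadjusted p of 0.05, against 7.22% and 4.22% of all genes. The pairwise t statistic likewise gave 0 members at either threshold, against 0 (adjusted) and 2143 (unadjusted) of all 22180 genes. The differences were -0.07 ± 0.80 for Col1a1, -0.09 ± 0.74 for Col3a1, 0.06 ± 0.93 for Col5a2 and -0.02 ± 0.81 for Col6a3 (SE). Class medians were 0.03 for fibrillar, -0.19 for basement membrane, 0.14 for FACIT and -0.11 for other chains, and 0.04 for all genes. The fibrillar median was -0.42 without control replicate 2 and 0.44 without control replicate 1.

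The same question in obese mice was addressed by DIO + HMB against DIO. By limma 0 members passed the adjusted threshold (0% of all genes), and at an unadjusted p of 0.05 there were again 0 in either direction, against 3.34% of all genes higher and 3.75% lower. The pairwise t statistic gave 0 adjusted calls. At an unadjusted p of 0.05 it gave 1 member lower (Col4a5), against 1356 of all 22180 genes in either direction. Fibrillar chains had a median difference of 0.12 and FACIT chains of -0.22, and the median of all genes was -0.01. Without DIO replicate 3, 5 members were lower at an unadjusted p of 0.05 (Col11a1, Col4a5, Col16a1, Col8a1 and Col8a2) against 3.27% of all genes, 0 were higher against 2.33%, and the lowest adjusted p was 0.855. The fibrillar median was then -0.81. Without DIO replicate 1, 3 members were lower and 0 higher, against 5.35% and 4.98% of all genes, with a lowest adjusted p of 0.322. Removing DIO replicate 2 gave 0 members in either direction, against 2.19% of all genes higher and 2.87% lower.

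**Figure D4:**
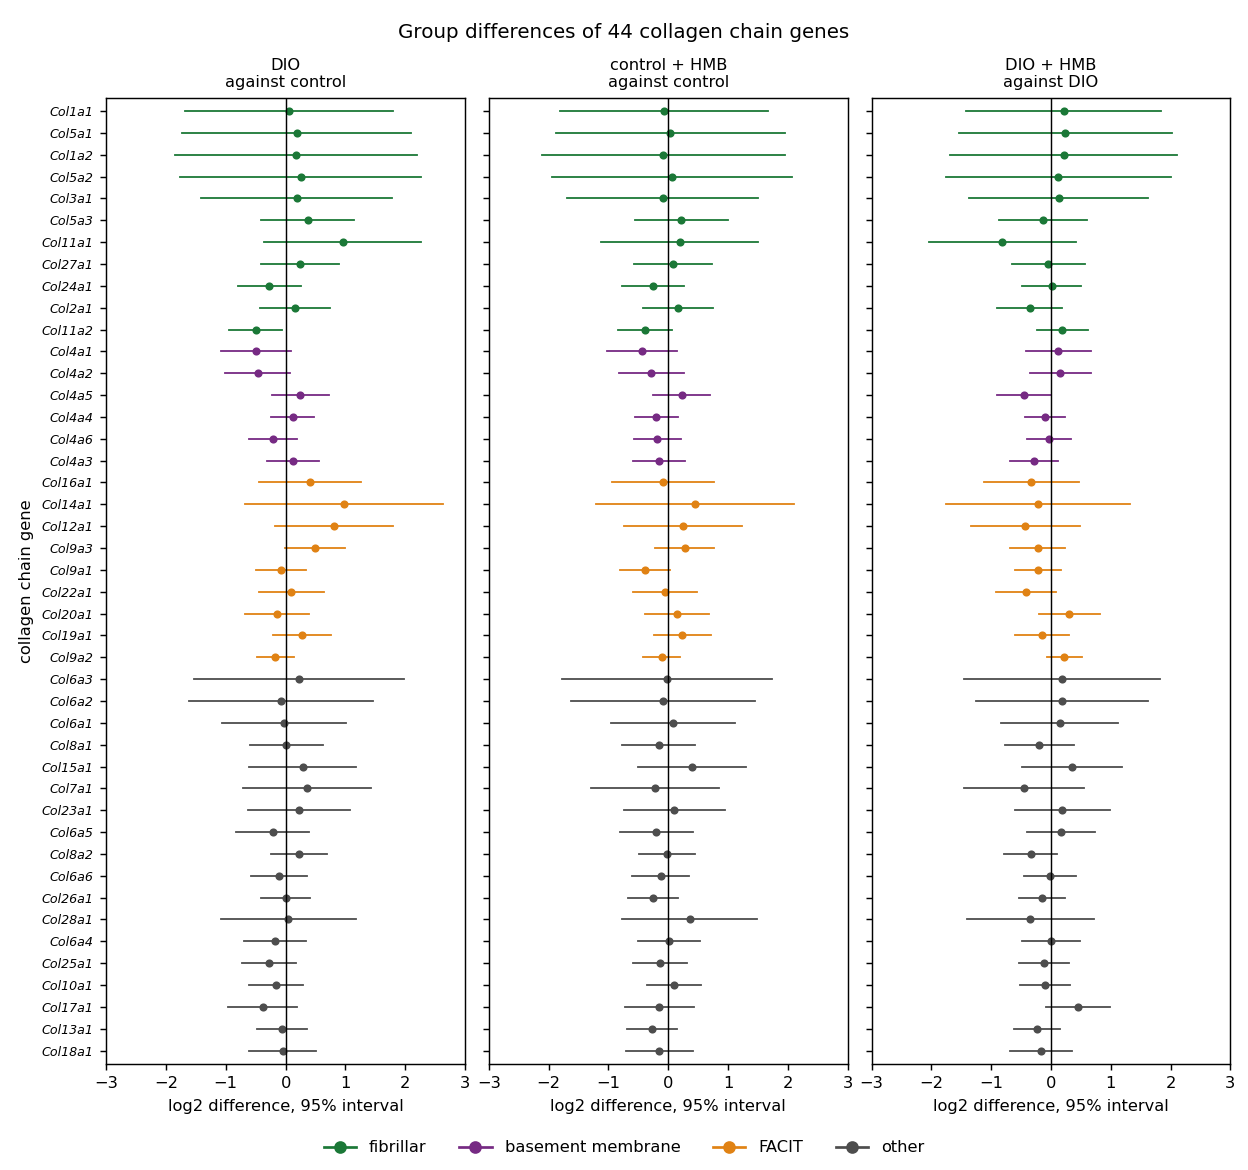
Log2 differences (points) with 95% intervals (bars) of 44 collagen chain genes for 3 comparisons (DIO against control, HMB in control mice, HMB in DIO mice), colored by class. Positive values are higher in the group named first, and every interval drawn crosses 0 except that of Col11a2 for DIO against control (-0.95 to -0.05).

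The remaining contrasts gave no adjusted call either (0% of all genes in each). For DIO + HMB against control + HMB, 0 members were higher or lower at an unadjusted p of 0.05 in limma, against 0.933% and 1.92% of all genes. For DIO + HMB against control, the counts were also 0, against 8% and 6.76%. There the pairwise t statistic gave 1 member lower (Col13a1), against 3053 of all 22180 genes in either direction. The interaction had 0 members higher and 1 lower (Col4a5), against 1.63% and 3.19% of all genes. HMB averaged over both diets had 0 higher and 1 lower (Col9a1), against 8.1% and 5.75%, and diet averaged over HMB status had 0 in either direction, against 2.16% and 3.11%. Leaving out 1 tumor moved these counts. Without DIO replicate 3, diet averaged over HMB status had 5 members higher (Col11a1, Col12a1, Col14a1, Col15a1 and Col16a1) and 1 lower (Col11a2), against 3.36% and 3.14% of all genes, and the interaction had 1 higher and 3 lower, against 1.66% and 3.01%. Without DIO replicate 1, HMB averaged over both diets had 4 lower (Col22a1, Col13a1, Col4a3 and Col9a1), against 7.21%, and without DIO replicate 3 it had 3, against 5.22%. Without control replicate 2, DIO + HMB against control had 3 lower (Col25a1, Col10a1 and Col4a1), against 6.79%, and diet averaged over HMB status had 2 lower, against 3.74%. The lowest adjusted p of a member over these fits was 0.150.

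Markers of fibroblasts, the main makers of fibrillar collagen, moved with the variable chains over part of the list. The score of the 8 chains of collagens I, III, V and VI was -1.97 in DIO replicate 3 and -1.54 in control replicate 2, where the score of the 15 fibroblast markers was -0.99 and -0.71. The fibroblast score ran from -0.12 to 0.49 in DIO + HMB, from -0.99 to 0.79 in DIO, from -0.47 to 0.61 in control + HMB and from -0.71 to -0.04 in control. In control replicate 1 the 8 chains scored 0.99 and the fibroblast markers -0.04, so the lists did not move together in every tumor. Of the 15 markers, 4 (26.7%) correlated with Col1a1 at r of 0.8 or more (Fbln2, Mfap5, Prrx1 and Twist1), against 0.627% of all other genes, as a description over 13 arrays, and Clec3b, Tcf21 and Twist2 had means below the median of all genes. Pdgfra and Pdgfrb, growth factor receptors of fibroblasts, ran otherwise. Col3a1 had r = -0.38 with Pdgfra (rho = -0.34, permutation p = 0.202 and 0.262, r = 0.08 without DIO replicate 3 and control replicate 2) and r = -0.15 with Pdgfrb (rho = -0.29, permutation p = 0.611 and 0.333, r = -0.41 without them), with adjusted p of 0.242 or more. What part fibroblast number had in the chains' levels was not tested.

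**Figure D5:**
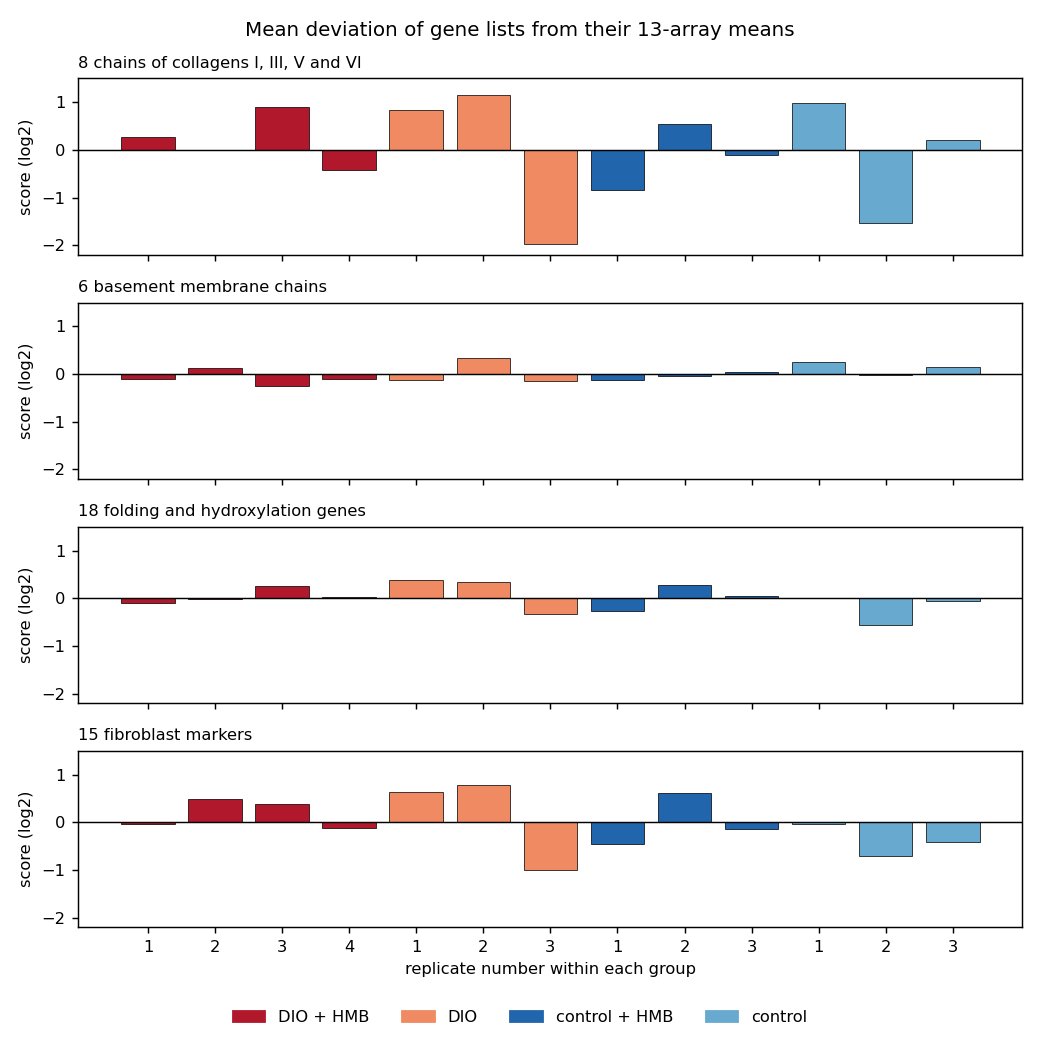
Scores of 4 gene lists in each tumor, as the mean over the list of log2 values centered on each gene's 13-array mean (bars, colored by group). The 8 collagen I, III, V and VI chains and the fibroblast markers are both lowest in DIO replicate 3 (-1.97 and -0.99), the folding and hydroxylation genes are lowest in control replicate 2 (-0.57), and the basement membrane chains stay within -0.24 and 0.33.

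Of 80 measured genes that fold, export, cross-link, bind or induce collagen, 0 passed the adjusted threshold in any comparison. For DIO against control, 8 were higher and 2 lower at an unadjusted p of 0.05, while 4.31% and 3.44% of all genes were. The 2 lower genes were the basement membrane gene Agrn, by -0.31 ± 0.13, and the collagen receptor gene Gp6, by -0.54 ± 0.20 (SE). Their adjusted p-values were 0.627 and 0.601. Gp6 averaged 2.30 in DIO and 2.84 in control, below the median of all gene means. P4ha1, a catalytic subunit of prolyl 4-hydroxylase, had log2 values of 8.15, 8.31 and 8.09 in DIO tumors, all above 7.63, 7.53 and 7.80 in control tumors. The difference was 0.53 ± 0.15 (SE), with an unadjusted p of 0.00446 and an adjusted p of 0.591. In DIO + HMB tumors P4ha1 was 7.59, 7.88, 7.80 and 8.0, all below the DIO tumors, and its interaction was -0.71 ± 0.21 (SE), with an unadjusted p of 0.00546 and an adjusted p of 0.933. P4ha1 also differed from control by 0.34 ± 0.15 (SE) in control + HMB, with an adjusted p of 0.427. Crtap, a partner of the prolyl 3-hydroxylase complex, had 9.51, 9.17 and 9.18 in DIO tumors and 8.69, 8.80 and 8.99 in control tumors, a difference of 0.46 ± 0.16 (SE, adjusted p = 0.595). Against the same control tumors, Crtap differed by 0.48 ± 0.16 in control + HMB and 0.54 ± 0.15 in DIO + HMB (SE), with adjusted p of 0.33 and 0.19. Serpinh1, the collagen chaperone HSP47, had a difference of 0.57 ± 0.23 (SE) for DIO averaged over HMB status, with an unadjusted p of 0.0285 and an adjusted p of 0.927. Gp6 differed by -0.45 ± 0.13 (SE) in that contrast, with an unadjusted p of 0.0056 and an adjusted p of 0.914. There 5 of the 80 genes were higher and 3 lower at an unadjusted p of 0.05, against 2.16% and 3.11% of all genes.

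For HMB averaged over both diets, 4 of the 80 genes were higher and 1 lower at an unadjusted p of 0.05, against 8.1% and 5.75% of all genes. For control + HMB against control, 8 were higher and 1 lower, against 7.22% and 4.22%. For DIO + HMB against control, 7 were higher and 5 lower, against 8% and 6.76%. Under HMB, Plod1, a lysyl hydroxylase, had values of 8.21, 8.76, 8.48 and 8.35 in DIO + HMB tumors and 8.27, 8.53 and 8.07 in control + HMB tumors, each above 7.75, 7.93 and 7.89 in control tumors. Averaged over both diets the HMB difference was 0.39 ± 0.12 (SE), with an adjusted p of 0.241. The mean of Plod1 was 8.10 in DIO tumors, without HMB, and 7.86 in control tumors. The DIO and DIO + HMB tumors overlapped for Plod1. Sar1b, a GTPase of the vesicles that carry procollagen, had 9.02, 9.08, 9.24 and 9.09 in DIO + HMB tumors, 9.03, 9.10 and 9.26 in control + HMB tumors, and 8.42, 8.55 and 8.90 in control tumors. In DIO tumors, without HMB, Sar1b was 9.14, 8.84 and 8.89, a difference from control of 0.33 ± 0.15 (SE) with an unadjusted p of 0.0429. The vesicle coat gene Sec24d differed from control by 0.41 ± 0.14 in DIO, 0.42 ± 0.14 in control + HMB and 0.39 ± 0.13 in DIO + HMB (SE), with adjusted p-values of 0.595, 0.328 and 0.227 against the same 3 control tumors. Itga1, which encodes the α1 chain of a collagen receptor integrin, had an HMB difference of 0.73 ± 0.22 (SE) averaged over both diets, with an adjusted p of 0.241. Kera, listed with the fibril-associated genes, went the other way, at -0.47 ± 0.14 (SE), with an unadjusted p of 0.00432 and an adjusted p of 0.241. Kera averaged 2.63 in control + HMB and 2.66 in DIO + HMB, against 3.28 in control, all below the median of all gene means. Ccn2, a matricellular inducer of collagen known as connective tissue growth factor, had 8.49, 7.66, 7.08 and 8.04 in DIO + HMB tumors, 7.83, 8.29 and 7.07 in DIO tumors, and 7.64, 7.39 and 7.92 in control + HMB tumors. Each of these was above 6.76, 6.36 and 7.04 in control tumors, with adjusted p-values of 0.206 to 0.601.

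Some of these genes shared the tumor-to-tumor pattern of the chains. With Col1a1, 8 of the 80 (10%) correlated at r of 0.8 or more, against 0.627% of all other genes, and the median r was 0.37 over the 80 and 0.01 over all other genes. Creb3l1, a membrane-bound transcription factor of collagen-secreting cells, stood at r = 0.974 (rho = 0.967, 0.962 without DIO replicate 3 and control replicate 2). It had values of 5.74, 5.0, 6.08 and 5.29 in DIO + HMB tumors, 6.58, 6.93 and 3.74 in DIO tumors, 4.64, 6.13 and 5.61 in control + HMB tumors, and 6.68, 4.17 and 5.95 in control tumors. The others were P4ha3 (0.93), the matrix genes Postn (0.92) and Tnc (0.87), the collagen receptor integrin gene Itga11 (0.90), P3h3 (0.84), the cross-linking enzyme gene Lox (0.82) and P4ha2 (0.81). Lox stood at 0.48 without the 2 farthest arrays. Over the 8 genes rho was 0.632 to 0.967, and the adjusted permutation p was 0.000154 to 0.00498 for r and 0.000176 to 0.0861 for rho, the highest in each case for Lox. Col1a1 and Serpinh1 correlated at r = 0.626 (rho = 0.577, permutation p = 0.0215 and 0.042, r = 0.738 without those arrays), with adjusted p of 0.0322 and 0.063. Creb3l1 was singled out after its values were seen.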

How the data were processed

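Affymetrix Mouse Gene 2.1 ST arrays measured RNA of 13 Panc02 tumors. Values were deposited as log2, after RMA normalization by the authors, and the submitters' notes also name affy and limma. No source used here gives tool versions or the array's genome build. Of 41345 probe sets, 23521 had 1 gene symbol, and each of the 22180 genes was represented by its brightest probe set on average. For 3 members another probe set was set aside: the 2 probe sets correlated at 0.982 for Col1a2, 0.598 for Col5a1 and 0.914 for Col6a1. No gene was filtered out.

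One limma model (version 3.58.1 in R 4.3.3) was fitted to every array, with a mean for each of the 4 groups, which left 9 residual degrees of freedom. Tests were two-sided, with Benjamini-Hochberg adjustment over all genes at 0.05. The model was also run on simulated data with independent errors for each gene, which does not cover chains that move together. The members, lists and pairs were chosen with earlier results of these data known. Values by tumor are given for the main chains and for the 3 chains of lowest p under 0.05 per direction in each comparison. Of the accessory genes under an unadjusted p of 0.05, only some are given, by tumor or as differences. Col11a1 and Creb3l1 were added after their values were seen. Correlations used 100000 permutations. Replicate numbers do not mark shared animals. The number of arrays limits the precision. Alternatives were the pairwise t statistic, a signal filter, mean probe sets, array width, a second normalization, array weights, trend moderation, a replicate block and leaving out each array. The fibroblast marker score as a covariate was chosen after seeing the data.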

Additional observations from a re-analysis of the deposited data

Results flagged for a closer look

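In DIO + HMB, the one group large enough for this rule, 2 of 44 collagen genes had a tumor whose distance to the nearest other tumor exceeded Dixon's 95% limit, and chance gives about 2.2 (1 in 20). Col4a1 was 8.28 in DIO + HMB replicate 2 and 7.66 to 7.71 in the other 3. The same tumor had the highest Col4a2 value of its group, 8.03, and marker scores of 2.08 for adipocytes and 0.73 for endothelium, whose part was not tested. Col6a1 was 10.69 in DIO + HMB replicate 3 and 9.50 to 9.70 in the other 3. That tumor had a skeletal muscle score of 3.93, whose part was not tested.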

How the results depend on the processing

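No collagen gene passed the adjusted threshold in any comparison under any setting run. The number of arrays limits these results, and the DIO differences of Col1a1, Col3a1, Col5a2 and Col6a3 turned negative without control replicate 2, DIO replicate 1 or DIO replicate 2 and exceeded 1 without DIO replicate 3. Replicate numbers are not a pairing by design. Deviations of same-numbered tumors correlated at -0.185 to 0.297, with 3 of 18 pairs over 0.1, and with a replicate block 0 collagen genes passed. The block gave 0.01 for Col14a1 in DIO + HMB against DIO. With array width as a covariate, counts over all genes at an unadjusted p of 0.05 were lower in 6 of 8 comparisons (for example 976, against 3273 without it, for DIO + HMB against control) and higher for DIO + HMB against control + HMB (674 against 633) and the interaction (1074 against 1068).

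Without the genes below the median signal, class medians were -0.46 (basement membrane) and 0.90 (FACIT) for DIO against control, 0.35 (FACIT) for control + HMB against control, 0.12 (basement membrane) for DIO + HMB against DIO and 0.57 (FACIT) for DIO + HMB against control, since fewer chains were counted. With array width, the basement membrane median was 0.13 for DIO + HMB against control and Col1a1 0.015 for control + HMB against control. With array weights Col1a1 was -0.007 for DIO against control and Col5a2 -0.23 for control + HMB against control, and a second quantile normalization gave -0.078 for Col5a2 there. The fibroblast marker score was chosen as a covariate after seeing the data. With it, DIO minus control was -0.87 for Col1a1, -0.71 for Col3a1, -0.83 for Col5a2, -0.72 for Col6a3 and -0.22 for Col15a1. Col3a1, Col4a1, Col4a2 and Col6a2 were lower at an unadjusted p of 0.05 (adjusted p 0.598 to 0.618). At that threshold 1770 of all 22180 genes were called in either direction. Control + HMB minus control was -0.75 for Col3a1 (unadjusted p 0.0310, adjusted p 0.427) and -0.58 for Col4a1 (0.0365 and 0.438), against 2403 of 22180 genes under 0.05. It was -0.74 for Col1a1, -0.73 for Col5a2, -0.71 for Col6a3, -0.08 for Col12a1 and -0.27 for Col14a1. FACIT medians were then 0.041 for DIO against control, -0.058 for control + HMB against control and -0.091 for DIO + HMB against control. The causes were not tested.

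Leaving out each tumor in turn, class medians ran from -0.42 (without control replicate 2) to 1.13 (without DIO replicate 3) for fibrillar and -0.19 to 0.27 for other chains in DIO against control. They ran from -0.42 to 0.44 for fibrillar and -0.049 to 0.24 for FACIT in control + HMB against control, -0.81 to 0.20 for fibrillar and -0.32 to -0.015 for FACIT in DIO + HMB against DIO, and -0.15 to 0.14 for FACIT in DIO + HMB against control + HMB. In DIO against control, Col1a1 ran from -0.64 to 1.16, Col3a1 from -0.42 to 1.13, Col5a2 from -0.64 to 1.45, Col6a3 from -0.52 to 1.20 and Col15a1 from -0.02 to 0.85. In control + HMB against control, Col1a1 ran from -0.77 to 0.42, Col3a1 from -0.71 to 0.36, Col5a2 from -0.83 to 0.75, Col12a1 from -0.18 to 0.68, Col14a1 from -0.17 to 0.92 and Col6a3 from -0.76 to 0.61. In DIO + HMB against DIO, Col1a1 ran from -0.89 to 0.87, Col3a1 from -0.81 to 0.68, Col5a2 from -1.08 to 0.89, Col4a1 from -0.048 to 0.40, Col4a2 from -0.026 to 0.37, Col14a1 from -1.12 to 0.38, Col6a3 from -0.79 to 0.70, Col15a1 from -0.22 to 0.66 and Col11a2 from -0.009 to 0.38.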
